A study of Mus musculus with 7 samples.

Results

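DEAD and DEAH box RNA helicases are ATPases that unwind or clamp RNA and remodel complexes of RNA and protein. They are named after the amino acids of their ATP-binding motif. Most symbols with Ddx belong to the DEAD branch and most with Dhx to the DEAH branch, but the stem does not always match the motif. Different members serve ribosome assembly in the nucleolus, splicing, mRNA export, translation, mRNA decay and the sensing of viral RNA. Growing tumour cells spend much of their RNA synthesis on ribosomes, and mTOR is a main regulator of that output. The members were taken as every array probe whose gene symbol starts with Ddx or Dhx followed by a digit. This gave 95 of 45128 probes, which stand for 46 of 19026 named genes. Of these, 63 probes and 38 genes passed the filter on dim probes and were tested among 11085 genes. The symbol rule itself uses no measured value, but the family was chosen with earlier results of these data known.

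The arrays measured RNA of prostate tumours of the NPK model, grown as allografts in athymic NU/J mice, which lack a thymus and most T cells but keep other blood cells. The vehicle group holds 3 tumours and the RAPPD group 4, and in both groups dosing ran for 5 days with harvest on the last of them. RAPPD is not explained in the labels, and published work on the model uses the name for rapamycin, an mTOR inhibitor, combined with an inhibitor of the kinase MEK. Ages are not among the labels, and neither is whether the tumours came from separate donors, so the p-values reflect only how these arrays spread, which may be technical.

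Between 20323 and 21330 probes were detected per array. Vehicle 1 and vehicle 2 each lay alone on a chip, while vehicle 3 shared its chip with all 4 RAPPD arrays. Vehicle 2 also carried skeletal muscle transcripts, with Acta1 at 14.93 against 6.32 and 4.85 in the other vehicle arrays. Of 9 luminal epithelial markers 5 were measured, Krt8, Krt18 and Cldn7 were lower in RAPPD tumours, and Epcam and Cldn4 were among those that did not pass the filter. The summed intensity of the measured markers was 17630 to 28834 in vehicle and 3355 to 10449 in RAPPD tumours. All 8 neutrophil markers were measured and 7 rose, with sums of 2856 to 11297 and 21279 to 64712. All 3 measured erythroid markers and 2 of 6 fibroblast markers also rose. The part of these shifts in cell make-up in any helicase value was not tested, and in such bulk samples fewer cells of a type cannot be told apart from less RNA per cell.

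The comparison asked which helicase transcripts differed after treatment with RAPPD. Of the 38 helicase genes, 5 fell and 0 rose. The genes that fell were the DNA helicase Ddx11, the nucleolar helicases Ddx31, Ddx21 and Ddx27, and the transcriptional co-regulator Ddx17. The background is close to this for falls, since 13.1% of all tested genes were called lower (24.1% in either direction), against 13.2% of the helicases. For rises the share over all genes was 11.0%, and the difference was not tested. At an unadjusted p under 0.05, 9 helicases (23.7%) were lower and 5 (13.2%) higher, against 19.9% and 17.6% of all genes. A gene was called when its two-sided limma p, adjusted by the Benjamini-Hochberg method across the 11085 genes, was under 0.05, and differences are RAPPD minus vehicle in log2 intensity. The median difference of the 38 genes was -0.042, against -0.014 for all genes, and the median size of the difference was 0.40, against 0.36. The 2 groups of tumours did not overlap for 13 helicases, 8 with lower and 5 with higher values in RAPPD tumours. This is 34.2% of the helicases, where the share over all genes was 34.7%.

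**Figure D1:**
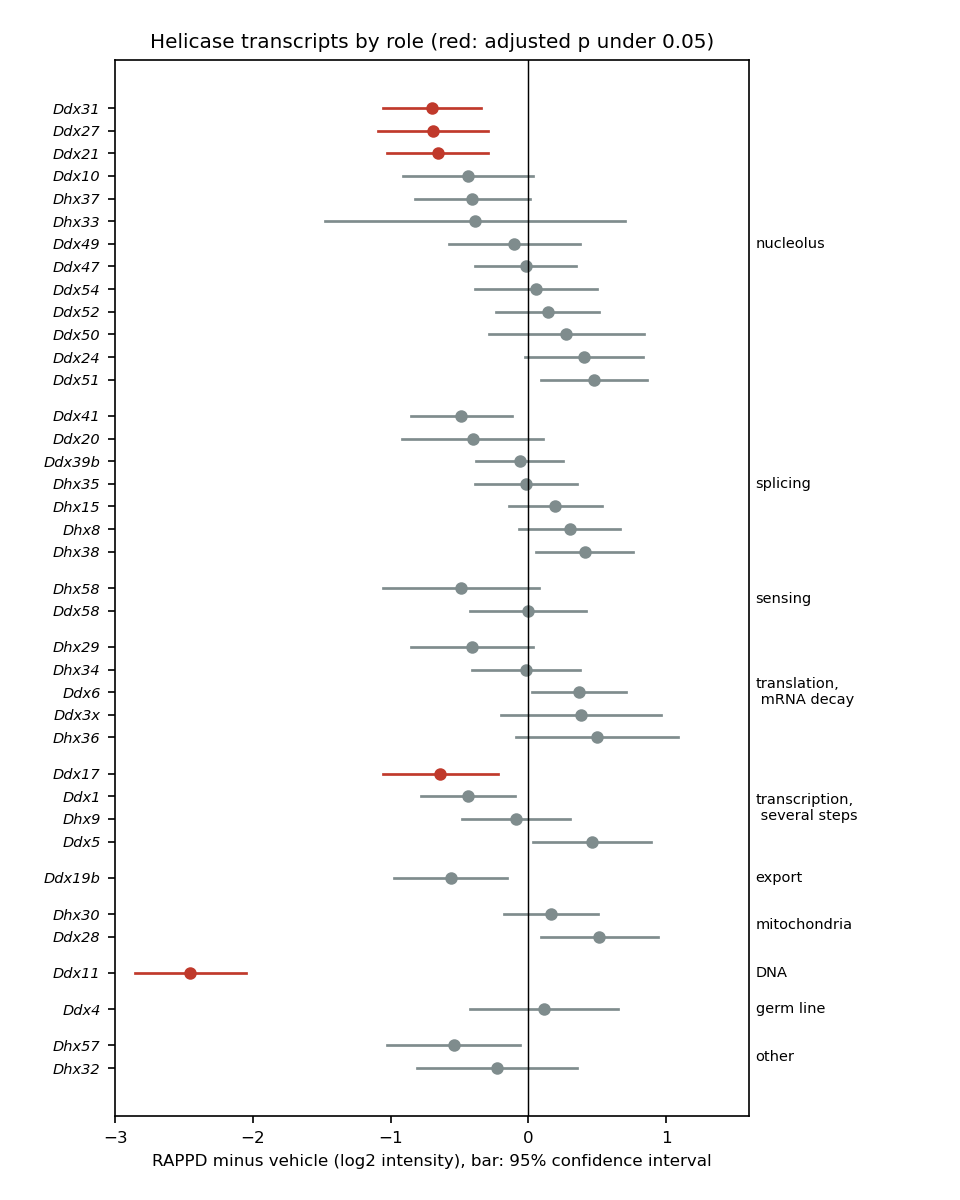
Difference between RAPPD and vehicle tumours (x axis, log2 intensity) for each of the 38 measured helicase genes (y axis), grouped by role, with points for the estimate and bars for the 95% confidence interval. Ddx11 stands alone at -2.45, the other 4 called genes (red) lie between -0.70 and -0.64, and the members not called (grey) lie between -0.56 and 0.52.

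Ddx11 was the helicase with the largest difference. It encodes an iron-sulphur DNA helicase that acts in sister chromatid cohesion and at replication forks, and so differs in substrate from most of the family. The vehicle arrays read 8.25, 8.39 and 8.47. On the RAPPD arrays it read 6.05, 5.88, 5.58 and 6.16, well below every vehicle array. Ddx11 fell by 2.45 ± 0.18 (SE, n = 4 and 3; 5.48-fold; limma adjusted p = 4.68e-05). Its single probe was above background on all 7 arrays, though its mean of 5.92 in RAPPD tumours lay close to background. On the shared chip, where a single vehicle array meets the 4 RAPPD arrays and its spread is taken from the fit, the difference was -2.55 ± 0.27 (adjusted p = 0.00662), and there Ddx11 was the only helicase called, where 5.94% of all genes were lower and 3.42% higher. Without each array in turn it stayed between -2.53 and -2.34. The size depended on the setting, with -1.95 at a background offset of 50 and -0.76 in the submitters' processed values.

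In the nucleolus, helicases drive steps of ribosomal RNA (rRNA) synthesis, cleavage and folding. Of 15 such genes on the array 13 were measured, of which 3 fell (23.1%) and 0 rose, against 13.1% and 11.0% of all genes. At an unadjusted p under 0.05, 3 (23.1%) were lower and 1 (7.69%) higher, against 19.9% and 17.6% of all genes. The median difference of the 13 was -0.10 and their range -0.70 to 0.48, so that 8 lay below and 5 above 0.

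Ddx31, whose yeast counterpart acts in assembly of the large ribosomal subunit, read 7.11, 6.96 and 7.31 in vehicle tumours and 6.52, 6.49, 6.45 and 6.24 in RAPPD tumours. The groups were separate, and Ddx31 fell by 0.70 ± 0.16 (1.62-fold; limma adjusted p = 0.0134). A further Ddx31 probe fell by 0.72 ± 0.15 when all probes were tested, though its mean of 5.55 in RAPPD tumours lay close to background. The size of the Ddx31 difference depended on the setting, with -0.53 at a background offset of 50 and -0.16 in the submitters' processed values. Ddx21, which in human cells binds rRNA genes and supports both their transcription and the processing of the product, read 10.47, 10.94 and 10.79 in vehicle tumours against 10.17, 10.09, 10.02 and 10.02 in RAPPD tumours. Again no RAPPD array reached a vehicle array, and Ddx21 fell by 0.66 ± 0.16 (1.58-fold; limma adjusted p = 0.0188). Its dimmer probe fell by 0.95 ± 0.17, the larger of the 2 estimates.

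Ddx27, which in human cells works beside the Pes1 and Bop1 complex in large subunit maturation, read 10.31, 10.70 and 10.13 in vehicle tumours. In RAPPD tumours it read 9.65, 9.73, 9.57 and 9.79, all lower. Ddx27 fell by 0.69 ± 0.17 (1.62-fold; limma adjusted p = 0.0214), and its other probe past the filter fell by 0.72 ± 0.16. With chip as a fixed block, Ddx31, Ddx21 and Ddx27 differed by -0.88 ± 0.20, -0.71 ± 0.18 and -0.44 ± 0.19, and none of these was called (adjusted p = 0.0502, 0.0657 and 0.19). Ddx31 was called without each array in turn. The call of Ddx21 was lost without vehicle 2 (-0.55, adjusted p = 0.0585) and without RAPPD 2, 3 or 4 (-0.67, -0.64 and -0.64, adjusted p = 0.0509, 0.0513 and 0.0522). That of Ddx27 was lost without vehicle 1 or 2 (-0.73 and -0.53, adjusted p = 0.055 and 0.0586) and without RAPPD 2 or 3 (-0.71 and -0.66, adjusted p = 0.0523 and 0.0582).

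The other 10 measured nucleolar helicases were not called. Ddx51, which serves maturation of the large subunit rRNA, read 9.14, 9.11 and 9.09 in vehicle tumours and 9.38, 9.67, 9.41 and 9.89 in RAPPD tumours. Every RAPPD value lay above every vehicle value, but the difference of 0.48 ± 0.17 did not pass the test (limma adjusted p = 0.0731). Dhx37, which releases the U3 small nucleolar RNA from the early small subunit, read 7.02, 7.36 and 6.71 in vehicle tumours and 6.50, 6.75, 6.66 and 6.58 in RAPPD tumours, so that the groups overlapped (-0.41 ± 0.18, adjusted p = 0.141). Ddx10, a small subunit factor named after its values were seen, differed between probes in its call. The brighter probe lay at -0.44 ± 0.21 and was not called (adjusted p = 0.159 over genes). The dimmer one read 7.45, 7.58 and 7.19 against 6.94, 6.68, 6.60 and 6.70 and fell by 0.68 ± 0.17 (limma adjusted p = 0.0218 over all probes). Some nucleolar members differed little, such as the small subunit factor Ddx47 at -0.021 ± 0.16 (95% confidence interval -0.39 to 0.35) and Ddx54 at 0.057 ± 0.20 (-0.39 to 0.50), both named after their values were seen.

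Ddx21 has a close paralog, Ddx50, which also resides in the nucleolus and is its neighbour on the chromosome. Ddx50, named after its values were seen, read 5.68, 6.49 and 5.70 in vehicle tumours and 5.95, 6.58, 6.32 and 6.09 in RAPPD tumours. These groups overlapped, and the difference was 0.27 ± 0.25 (limma adjusted p = 0.457; 95% confidence interval -0.29 to 0.84). The log2 ratio of Ddx21 to Ddx50 ran from 4.45 to 5.09 in vehicle and from 3.52 to 4.22 in RAPPD tumours, without overlap, a difference of -0.93. The level of such a ratio depends on the probes, so that only its change between groups can be read. The pair was chosen after the values were seen, so a p-value could not serve as a test of its difference, and none is given.

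**Figure D2:**
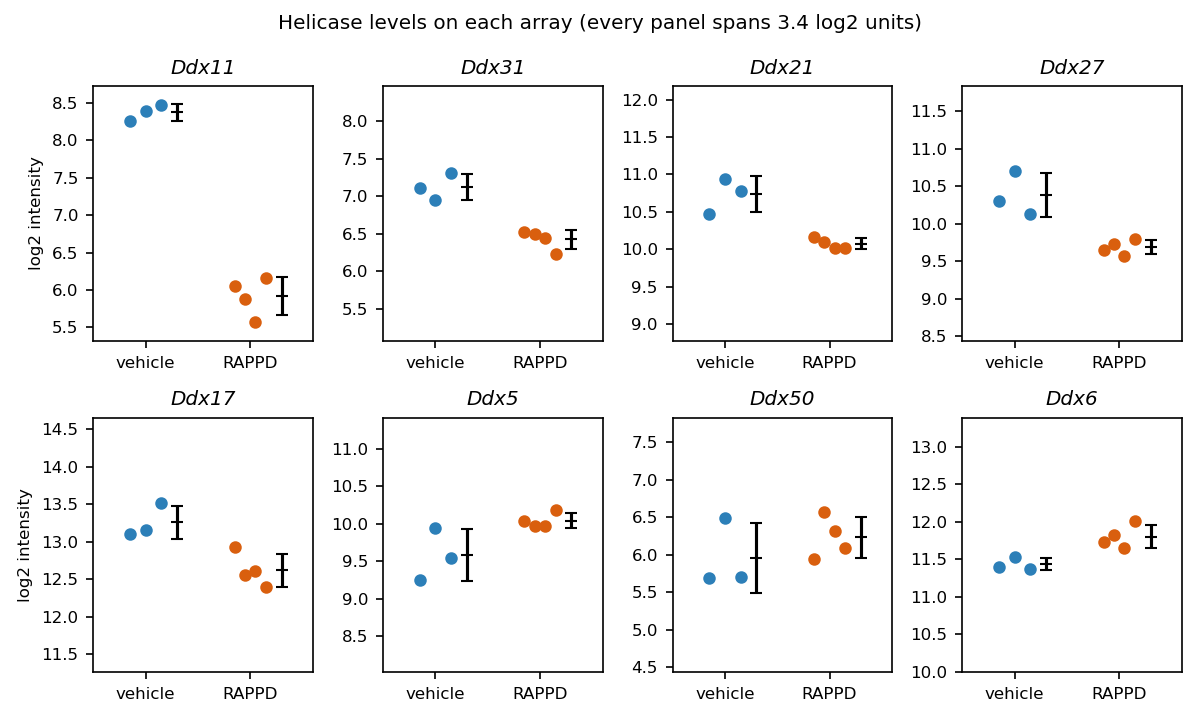
Level (y axis, log2 intensity) of 8 helicase genes on each vehicle (blue) and RAPPD (orange) array, with the mean and SD beside the points; every panel spans the same height. Ddx11 drops from between 8.25 and 8.47 to between 5.58 and 6.16, Ddx31, Ddx21, Ddx27 and Ddx17 drop by less without overlap, and the means of the paralogs Ddx5 and Ddx50 are not lower.

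The promoters of the nucleolar helicases that fell, of the paralog Ddx50 and of the RNA sensor Ddx58 are shown so that members with and without a change can be set beside each other. They are RefSeq sequences of build GRCm38.p6, 250 bases before to 50 after the start of the gene, written 5′ to 3′, with the matches in capitals. The letters CGGAAGTGACG are the longest run that the promoters of the neighbouring paralogs Ddx21 and Ddx50 share, 11 bases, and were chosen after the sequences had been read.
Ddx21, chr10:62602249-62602548, minus strand: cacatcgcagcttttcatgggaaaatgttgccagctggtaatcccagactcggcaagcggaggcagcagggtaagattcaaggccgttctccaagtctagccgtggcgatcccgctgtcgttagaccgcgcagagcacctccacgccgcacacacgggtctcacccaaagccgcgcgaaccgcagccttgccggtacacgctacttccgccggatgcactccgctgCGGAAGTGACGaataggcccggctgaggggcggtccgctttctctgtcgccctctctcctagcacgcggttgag
Ddx27, chr2:167015063-167015362, plus strand: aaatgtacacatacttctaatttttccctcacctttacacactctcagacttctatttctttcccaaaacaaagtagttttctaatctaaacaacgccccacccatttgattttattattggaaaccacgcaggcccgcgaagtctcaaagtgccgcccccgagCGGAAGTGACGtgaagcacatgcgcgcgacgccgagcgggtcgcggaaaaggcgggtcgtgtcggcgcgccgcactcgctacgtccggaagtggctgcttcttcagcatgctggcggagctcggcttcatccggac
Ddx50, chr10:62651169-62651468, minus strand: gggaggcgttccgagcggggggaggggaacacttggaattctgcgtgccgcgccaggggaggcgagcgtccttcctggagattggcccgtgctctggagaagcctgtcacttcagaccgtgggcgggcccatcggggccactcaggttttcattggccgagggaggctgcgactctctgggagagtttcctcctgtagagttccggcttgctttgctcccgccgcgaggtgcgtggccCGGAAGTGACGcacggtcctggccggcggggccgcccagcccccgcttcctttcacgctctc
Ddx31, chr2:28840156-28840455, plus strand: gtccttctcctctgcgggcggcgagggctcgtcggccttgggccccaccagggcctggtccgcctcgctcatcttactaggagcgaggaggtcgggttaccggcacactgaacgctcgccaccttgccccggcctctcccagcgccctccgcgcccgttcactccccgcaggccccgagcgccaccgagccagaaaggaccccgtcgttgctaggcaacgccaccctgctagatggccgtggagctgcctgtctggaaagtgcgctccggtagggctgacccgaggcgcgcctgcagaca
The capitals in the next promoter mark GAAA, any 2 letters and GAAA, a core of the interferon-stimulated response element, here on the opposite strand.
Ddx58, chr4:40239776-40240075, minus strand: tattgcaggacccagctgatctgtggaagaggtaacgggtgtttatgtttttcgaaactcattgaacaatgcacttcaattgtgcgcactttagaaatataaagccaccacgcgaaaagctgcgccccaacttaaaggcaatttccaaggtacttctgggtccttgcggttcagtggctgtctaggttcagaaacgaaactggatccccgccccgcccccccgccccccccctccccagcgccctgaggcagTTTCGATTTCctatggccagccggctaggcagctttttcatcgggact

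Counting the first transcribed base as +1, CGGAAGTGACG began at position -24 in Ddx21, -86 in Ddx27 and -12 in Ddx50, and these letters were not in the Ddx31 window. On either strand they occurred in 3 of 44 promoters of measured helicases (6.82%) and in 0.469% of all 32851 promoters. Ddx21 and Ddx50 hold the run by its choice, which leaves Ddx27, and Ddx50 was not called while Ddx21 and Ddx27 fell. The E-box CACGTG, which the growth regulator MYC binds, was in 0 of the 5 promoters of the 4 called helicases that had one, in 1 of 15 nucleolar ones (Dhx33) and in 7.15% of all. The interferon-response core was in 3.44% of all promoters and in 3 of 44 of measured helicases (6.82%). These belonged to Ddx58, where it began at position 3, and to the nucleolar Ddx49. Of the 38 measured helicases, 34 had a promoter in the table, some with several. Ddx11 had no entry.

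The proteins that the nucleolar helicases work beside were taken as a list of rRNA processing and RNA polymerase I genes. Of 33 measured partners 20 fell and 0 rose, with a median difference of -0.79. The share lower was 60.6%, against 23.1% of the nucleolar helicases and 13.1% of all genes. The rRNA methyltransferase gene Nop2 fell by 1.43 ± 0.14 and nucleolin (Ncl), which binds nascent rRNA, fell by 1.73 ± 0.18 (limma adjusted p = 0.000331 and 0.000431). Pes1 and Bop1, the partners of Ddx27, fell by 1.15 ± 0.22 and 1.22 ± 0.33. Averaged over the list and set against the vehicle mean, the partner genes stood at -0.68, -0.73, -0.78 and -0.62 on the 4 RAPPD arrays. The 13 helicases stood at -0.15, -0.025, -0.22 and -0.24 on the same arrays and at 0.075, -0.085 and 0.0094 on the vehicle arrays. The partner averages thus lay far below every vehicle array, while RAPPD 2 lay within the vehicle range for the helicases. The difference between both lists was not tested.

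**Figure D3:**
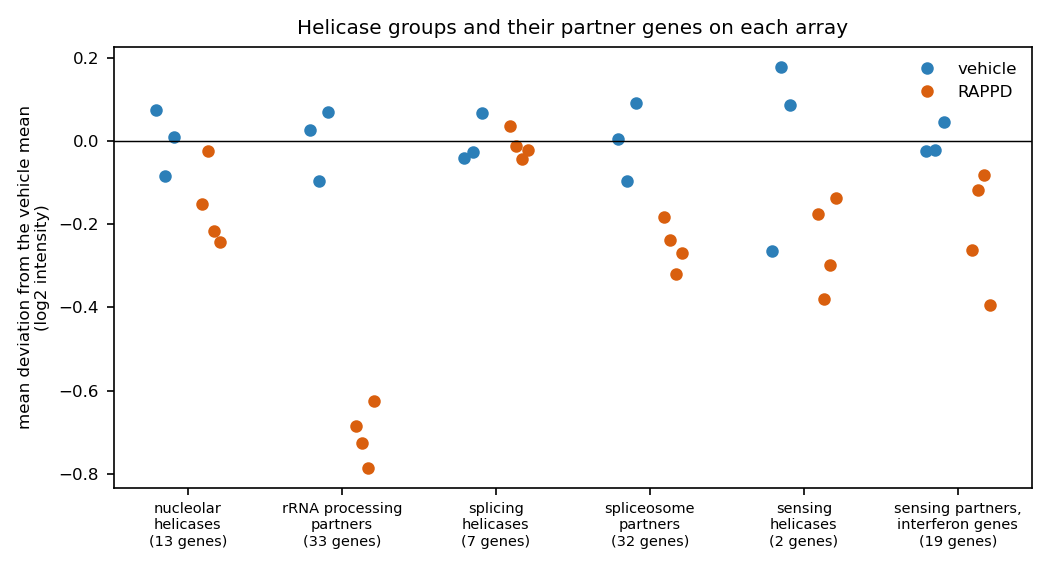
Mean deviation of each gene group from its vehicle mean (y axis, log2 intensity) on every vehicle (blue) and RAPPD (orange) array, for 3 helicase groups and the partner genes of each (x axis, with the number of genes). The RAPPD arrays reach -0.78 for rRNA processing partners, and stay between -0.24 and -0.025 for nucleolar helicases and between -0.043 and 0.036 for splicing helicases.

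Splicing helicases load, activate and dismantle the spliceosome. Of 9 genes on the array 7 were measured, and 0 were called, against 24.1% of all genes in either direction. At an unadjusted p under 0.05, 1 was lower and 1 higher (14.3% each, against 19.9% and 17.6% of all genes). The median difference of the 7 was -0.015, with 4 below and 3 above 0. Ddx41, a late spliceosome component that also senses cytosolic DNA, read 10.45, 10.72 and 10.89 in vehicle tumours and 10.35, 10.14, 10.19 and 10.11 in RAPPD tumours. The RAPPD values were all lower, at a difference of -0.49 ± 0.16 that missed the threshold (limma adjusted p = 0.0573). A fixed chip term gave -0.69 ± 0.19 (adjusted p = 0.0782), and a random one gave -0.56 ± 0.17, which was called (adjusted p = 0.0499). Ddx41 was called in 5 of the 18 alternatives. Dhx38, the counterpart of a yeast helicase that acts at the second catalytic step, read 10.83, 11.12 and 10.86 in vehicle tumours and 11.20, 11.33, 11.52 and 11.32 in RAPPD tumours. It was higher on all 4 RAPPD arrays, again short of the threshold (0.41 ± 0.15, adjusted p = 0.0885).

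The remaining 5 splicing members lay between -0.41 and 0.30. Among them Ddx39b, which recruits the U2 particle to the branch point and also serves mRNA export, differed by -0.064 ± 0.14 (95% confidence interval -0.38 to 0.25). It was named after its values were seen for having the smallest standard error of the 38 genes, and its other probe lay at -0.065. In the spliceosome itself, 10 of 32 measured partner genes fell (31.25%) and 1 rose (3.125%), with a median of -0.27. Over all genes 13.1% were lower and 11.0% higher. The small nuclear ribonucleoprotein gene Prpf3 fell by 1.08 ± 0.16 and the U2 component Sf3a1 fell by 0.97 ± 0.15, while the second-step factor Slu7 rose by 0.82 ± 0.21. The partner averages on the RAPPD arrays were -0.18, -0.24, -0.32 and -0.27, all below the lowest vehicle array at -0.097. The splicing helicases gave 0.036, -0.012, -0.043 and -0.022 there, inside or at the edge of the vehicle range of -0.041 to 0.066.

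RNA sensing is represented by Ddx58 (RIG-I), which detects viral RNA and signals through Mavs to interferon, and Dhx58 (LGP2), which lacks the signalling domain and modulates the pathway. Ddx58 read 5.90, 6.23 and 5.85 in vehicle tumours and 6.13, 6.22, 5.68 and 5.94 in RAPPD tumours. The groups overlapped fully, with a difference of -0.0035 ± 0.19 (limma adjusted p = 0.991; 95% confidence interval -0.43 to 0.42). Dhx58 read 6.66, 7.22 and 7.41 in vehicle tumours and 6.61, 6.11, 6.82 and 6.88 in RAPPD tumours. It lay lower on average but overlapped (-0.49 ± 0.25, adjusted p = 0.186), and its other probes gave -0.27 and -0.058. Neither was called, and 0 of both passed an unadjusted p under 0.05.

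Among 19 measured partners of RNA sensing and interferon-stimulated genes, 2 fell (10.5%) and 1 rose (5.26%), with a median of -0.22. Both shares lay below the 13.1% and 11.0% of all genes. The ISG15 protease gene Usp18 fell by 1.44 ± 0.27, the adaptor gene Mavs fell by 0.80 ± 0.16 and the endosomal sensor Tlr7 rose by 0.69 ± 0.19. Of 6 lymphocyte and NK cell markers, 0 passed the filter. Of 3 markers of plasmacytoid dendritic cells, which produce interferon, 2 passed the filter and 0 were called, Siglech at 0.54 ± 0.21 and Bst2 at -0.086 ± 0.36 (limma adjusted p = 0.0959 and 0.884).

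Helicases with roles in transcription and several later steps included the paralogs Ddx17 and Ddx5, co-regulators that also act in splicing and microRNA processing. Ddx17 read 13.11, 13.16 and 13.52 in vehicle tumours and 12.93, 12.55, 12.61 and 12.40 in RAPPD tumours. The values did not overlap, and Ddx17 fell by 0.64 ± 0.18 (1.56-fold; limma adjusted p = 0.0345). Its dimmer probe gave -0.52 ± 0.19 and was not called (adjusted p = 0.0791). On the shared chip the difference was larger, -0.89 ± 0.25, though not called (adjusted p = 0.0767). The call was the least stable of the 5, being lost in 6 of the 7 fits that left out an array, all but that without RAPPD 1, at differences between -0.72 and -0.51 (adjusted p = 0.0596 to 0.0901).

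Ddx5 showed the opposite sign. It read 9.25, 9.94 and 9.54 in vehicle tumours and 10.03, 9.97, 9.97 and 10.19 in RAPPD tumours, separate from vehicle by a narrow margin over vehicle 2. Its difference of 0.46 ± 0.19 was not called (limma adjusted p = 0.107). It was called without vehicle 2 (0.64, adjusted p = 0.0385) and with array weights (0.60, adjusted p = 0.0291). The log2 ratio of Ddx17 to Ddx5 ran from 3.22 to 3.97 in vehicle and from 2.22 to 2.89 in RAPPD tumours, a difference of -1.10. This pair, too, was chosen with its values known. Since Ddx17 was lower and Ddx5 higher on every RAPPD array, the ratio had to separate the groups, and no p-value is given. Ddx1, a subunit of the tRNA ligase complex, read 12.08, 12.06 and 12.36 in vehicle tumours and 11.83, 11.71, 11.61 and 11.76 in RAPPD tumours. It was lower throughout, short of the threshold (-0.44 ± 0.15, adjusted p = 0.0646), with its other probe at -0.52. Dhx9, an RNA helicase of transcription that resolves double-stranded RNA, overlapped between groups at 7.72, 8.20 and 8.21 against 8.11, 7.92, 7.86 and 7.92 (-0.091 ± 0.17, adjusted p = 0.737).

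Of 5 helicases of translation and mRNA decay, 0 were called, against 24.1% of all genes in either direction, and the median was 0.37. At an unadjusted p under 0.05, 1 of the 5 was higher (20%, against 17.6% of all genes). That single member was Ddx6, which represses translation and promotes decapping in P-bodies. Ddx6 read 11.40, 11.53 and 11.38 in vehicle tumours and 11.73, 11.82, 11.65 and 12.01 in RAPPD tumours. All RAPPD values were higher, at a difference of 0.37 ± 0.15 (limma adjusted p = 0.11). Its 5 probes all pointed up, from 0.25 to 0.56, and 1 of them rose by 0.56 ± 0.16 (adjusted p = 0.0333 over all probes). Probes of a gene share their arrays and are not independent.

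Ddx3x, which helps ribosomes start on structured mRNAs, was dim and uneven in vehicle tumours, at 5.21, 6.22 and 6.12 against 5.97, 6.32, 6.36 and 6.27 in RAPPD tumours. Its difference of 0.38 ± 0.26 was not called (limma adjusted p = 0.313) and depended on the setting. It was 0.058 without vehicle 1, the low array, and 0.72 with array weights, where it was called (adjusted p = 0.0484). Dhx29, a scanning factor of the small subunit, read 8.27, 8.09 and 8.13 in vehicle tumours and 8.11, 7.84, 7.35 and 7.72 in RAPPD tumours, with overlap (-0.41 ± 0.20, adjusted p = 0.161).

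The smaller groups held a single called member, Ddx11. Ddx19b, which releases mRNA at the nuclear pore, read 6.63, 6.60 and 6.57 in vehicle tumours and 6.14, 6.01, 5.66 and 6.32 in RAPPD tumours. The separation was complete but narrowly missed the threshold (-0.56 ± 0.18, limma adjusted p = 0.0522), and its other probe lay at -0.099. Ddx28, which assembles the large subunit of the mitochondrial ribosome, read 8.49, 8.55 and 8.10 in vehicle tumours and 8.66, 8.74, 9.08 and 9.09 in RAPPD tumours. It was higher on all 4 RAPPD arrays (0.52 ± 0.19, adjusted p = 0.0789). The germ cell helicase Ddx4 was above background on 1 vehicle and 2 RAPPD arrays, at 4.50 to 5.33 over all 7, so that no level change could be read. Dhx57, of uncertain function, read 8.22, 8.35 and 7.84 against 7.66, 7.20, 7.57 and 7.94, with overlap (-0.54 ± 0.21, adjusted p = 0.0965).

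Divided by symbol stem, 5 of 24 Ddx genes (20.8%) and 0 of 14 Dhx genes fell, while 0 of either rose. Over all genes 13.1% were lower and 11.0% higher. At an unadjusted p under 0.05, 8 Ddx genes (33.3%) were lower and 4 (16.7%) higher. For Dhx genes 1 was lower and 1 higher (7.14% each), against 19.9% and 17.6% of all genes. The groups of tumours were separate for 12 Ddx genes (50%) and for 1 Dhx gene (7.14%), Dhx38, against 34.7% of all genes. The difference between the stems was not tested. Of 11 measured relatives outside the symbol rule, the nonsense-mediated decay helicase Upf1 fell by 0.69 ± 0.14 and the microRNA enzyme Dicer1 rose by 0.79 ± 0.15. The translation initiation helicases Eif4a1 and Eif4a2 were not called, at -0.25 ± 0.17 and -0.067 ± 0.15.

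Across probes, 9 of the 63 helicase probes fell and 1 rose, where 11.0% and 10.9% of all 21249 probes did (22.0% in either direction). The called probes stood for 7 genes, namely the 5 above with Ddx10 and Ddx6. Of 18 genes with several probes past the filter, 17 had probes of a single sign, and the widest gap between probes of a gene was 0.47, in Ddx19b. The exception in sign was the spliceosome-dismantling helicase Dhx15, at 0.20 and -0.16. The 8 genes without a probe past the filter were Ddx25, Ddx39a, Ddx42, Ddx55, Ddx56, Ddx59, Dhx16 and Dhx40. Each of their probes was above background on at most 2 of 7 arrays.

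**Figure D4:**
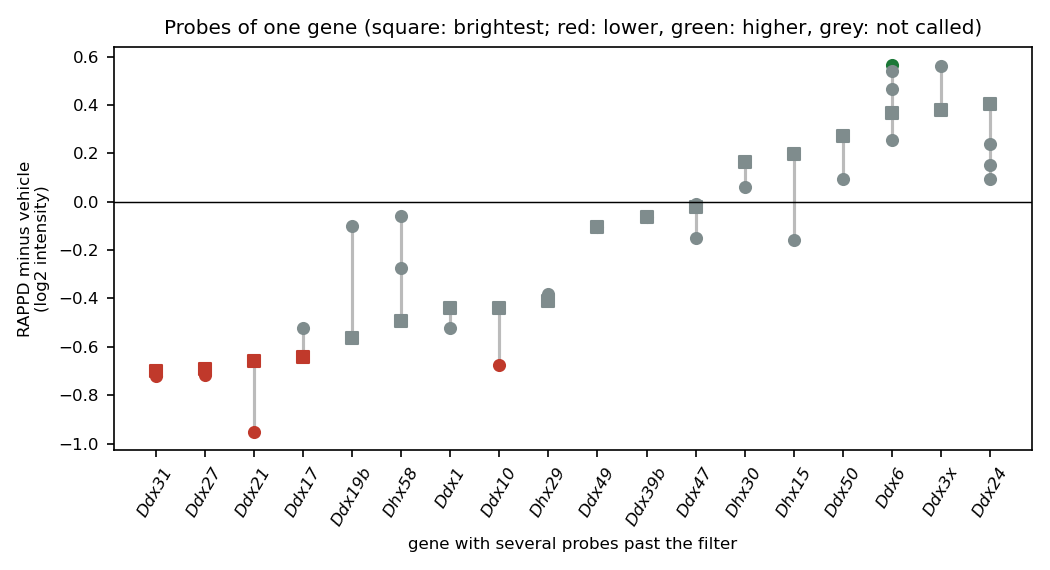
Difference between RAPPD and vehicle tumours (y axis, log2 intensity) for every probe of the 18 helicase genes with several probes past the filter (x axis). Squares mark the brightest probe, which stands for the gene; both probes of Ddx31, Ddx27 and Ddx21 are called lower (red), 1 of 5 Ddx6 probes is called higher (green), and the probes of Dhx15 lie on either side of 0.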

How the data were processed

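RNA of 7 tumours was hybridised to Illumina mouse bead arrays, 1 array per tumour. The deposited table gave background-subtracted intensity per probe on a linear scale, with no column of detection, bead number or controls. Mean intensities were 498.1 to 501.9 per array, and no source states whether arrays were scaled before export. A further deposited table ranked probes as the intensities did, with values that rose by about 1.02 per log2 unit at the bright end (medians 8.021 to 8.025 per array). Its transform and centring are unknown, and it served as an alternative. BeadStudio and lumi are named in the submitters' processing notes, and their roles are not given in the sources used here.

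In place of neqc, which needs the missing columns, normexp was run with a background mean of 0 and an SD from each array's negative intensities (8.41 to 9.35). An offset of 16, quantile normalisation and log2 followed. Probes above the upper 0.05 tail of the background on at least 3 arrays were kept, and a gene was its probe with the highest mean. Gene symbols came from the platform annotation, where 34776 probes had 1 symbol, 18 had several and 10334 were unnamed here, and 99.8% of those with 1 symbol matched RefSeq (GRCm38.p6) with 0 changes.

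RAPPD and vehicle were compared with limma 3.58.1 in R 4.3.3 (lmFit and eBayes, two-sided), over all genes and separately over all probes, and the fit was tested on simulated data. The number of arrays limits the precision. In the simulation 2.99% of genes changed by 1.5-fold were called, 49.3% at 2-fold and 97.0% at 4-fold, with 8.33% false calls. Only 67, 67 and 66 of its 11085 genes were changed at these sizes, while 2671 were called in the real data. The adjusted p depends on that share, so the simulated call rates need not hold for the tumours. A member that was not called may still differ by 1.5-fold or more, as the 95% confidence interval of Dhx33 shows (-1.48 to 0.70). Groups came from the treatment labels. Replicate numbers only name the arrays. Chip was fitted as a fixed block and, with statmod 1.5.0, as a random block (correlation 0.332). The helicases, role groups, partner lists and markers were chosen with earlier results of these data known. Named genes were, per role, the called members with the smallest p (up to 6 nucleolar, up to 4 elsewhere) and the 2 with the smallest p among those not called (1 in groups of under 4), 7 members chosen in advance of which 6 were measured, and from each partner list the called genes with the smallest p. Pes1, Bop1, Eif4a1 and Eif4a2 were added after their values were seen. The alleles of the tumour model and some markers are not reported here. Alternatives changed the background, normalisation, filter, probe choice, weights, chip term and arrays.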

Additional observations from a re-analysis of the deposited data

How the results depend on the processing

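The 5 falls kept their direction in all 18 alternatives. Ddx11 was called in 18 of them, Ddx31 in 17, Ddx21 and Ddx27 in 13 each and Ddx17 in 11. A fixed chip term compares only vehicle 3 with the RAPPD arrays, and with it 1 gene and 1 probe were lower and 0 probes higher, and the random block also gave 0 higher probes. Array weights gave 9 lower and 4 higher genes and 5 higher probes. Keeping probes detected on all 7 arrays gave 8 lower genes and 2 higher probes, and intensities floored without normexp gave 2 higher probes. The submitters' values gave 2 higher genes, Ddx6 and Dhx38, and 3 higher probes, and moved the median of the sensing helicases to -0.058. The cause of these shifts was not tested. Leaving out each array in turn gave 2 to 5 lower and 0 to 1 higher genes (Ddx5, without vehicle 2), and 5 to 9 lower and 0 to 3 higher probes. The splicing median then ranged from -0.077 to 0.11, and was highest without vehicle 3. The nucleolar median stayed below 0 in all alternatives, from -0.26 to -0.013. Of 377 values of the 21 named genes under alternatives, 324 kept direction and call, 18 lost and 24 gained a call, and 11 changed sign. All 11 were of genes not called there, namely Ddx58 (0.0029 in the submitters' values, 0.049 with array weights, 0.14 and 0.043 with chip as a fixed and a random block, -0.080 to 0.11 without each array), Dhx9 (0.047 with array weights) and Ddx4 (-0.0081 with chip as a fixed block, -0.022 to 0.27 without each array). Of the members not called, Ddx19b gained a call in 6, Ddx41 in 5, Ddx1 in 4, Ddx5 and Dhx38 in 2 and Ddx3x, Ddx51, Ddx6, Dhx37 and Dhx57 in 1 of the 18 alternatives. Signal close to background limits Ddx3x, Ddx4, Ddx50 and Ddx58. It also limits the size of the Ddx11 fall, since the RAPPD mean of Ddx11 (5.92) lay below that of Ddx58 (5.99). The dimmer Ddx31 probe, with a RAPPD mean of 5.55, is limited likewise.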

Other observations

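Dhx33, a nucleolar helicase that supports transcription by RNA polymerase I, had the widest standard error of the 38 measured helicases (-0.39 ± 0.48). It read 7.03, 5.38 and 7.05 in vehicle tumours and 6.60, 6.45, 6.19 and 5.14 in RAPPD tumours, so that a single tumour of each group, vehicle 2 and RAPPD 4, stood low. Both were above background. Its other probe did not pass the filter. Dhx36, which unwinds G-quadruplexes, also had a single low vehicle tumour, vehicle 2 at 8.75 against 9.50 and 9.78 in vehicle tumours and 9.62 to 10.19 in RAPPD tumours.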
